A study of Homo sapiens with 3 samples.

Results

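The strongest reproducible binding sites of the fusion protein HA-PSF-TFE3 were positions that scored at least 30 in both chromatin immunoprecipitation (ChIP-seq) libraries. Each library gave a list of summits, a summit being the base of highest enrichment in a peak. Summits of the 2 lists were paired when each was the other's nearest on the same chromosome and they lay at most 200 bp apart. Of 21518 pairs, 2230 (10.4%) met the score minimum and are called strong pairs or strong sites here, and the other 19288 are the remaining pairs. The score is −log10 of the q-value of enrichment over input DNA, so a score of 30 is far beyond the cutoff at which peaks were listed, 1.301.

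The cells were HK-2, an immortalised human line derived from proximal tubule epithelium of the kidney, carrying a doxycycline-inducible construct for the HA-tagged fusion. All samples had received 0.2 µg/ml doxycycline for 24 h, and the tagged protein was recovered with an anti-HA matrix. The 2 ChIP libraries were labelled replicates 8 and 9, and 1 library of input DNA was the background for peak calling. The ChIP libraries were made from separate clones of the inducible line, per the methods. The design text of the series names PRCC-TFE3 where its title and sample labels name PSF-TFE3, and the labels were followed. The fusion was made from an added construct in these clones, and uninduced cells were not analysed here. Because there was a single group, conditions could not be compared, sites of the same libraries are not replicates, and all intervals given are 95% intervals that cover counting error only.

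TFE3 belongs to the MiT/TFE family of basic helix-loop-helix leucine zipper transcription factors, with TFEB, TFEC and MITF. These factors bind E-box sequences and are known for switching on genes of lysosomes and autophagy, and nutrient-sensing mTORC1 holds the normal proteins in the cytoplasm. PSF, also called SFPQ, is a nuclear DNA- and RNA-binding protein, and its fusion to TFE3 occurs in translocation renal cell carcinoma and in perivascular epithelioid cell tumours. The score of a ChIP-seq site is a measure of significance over input, not of the amount of DNA recovered, and it also rises with read number. Read numbers were not analysed here, so differences in score are not differences in binding strength alone. Genes and sequence motifs at these sites were not analysed here, because the lists are on hg19 and the genome at hand was hg38, so sites are given by hg19 position, counted from 1.

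The values that chose the members are described first. In replicate 8 the strong sites scored from 30.04 to 107, with a median of 39.0 and quartiles of 34.3 and 46.4. In replicate 9 they scored from 30.05 to 145, with a median of 49.2 and quartiles of 39.5 and 62.8. Replicate 9 gave the higher score at 1684 strong sites (75.5%) and replicate 8 at 546. The ratio of replicate 9 to replicate 8 scores had a median of 1.23 and ran from 0.519 to 3.19. Over all 21518 pairs the order of the libraries was the other way, with median scores of 14.7 in replicate 8 and 12.4 in replicate 9. Most strong sites lay near the minimum, since the lower of the 2 scores was under 40 at 1364 sites, from 40 to under 50 at 586, from 50 to under 60 at 205 and at least 60 at 75. Within the strong set the libraries ordered the sites only loosely, with a Spearman's rho of 0.383 across the 2230 sites, which share both libraries and whose range of scores the minimum narrows.

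**Figure D1:**
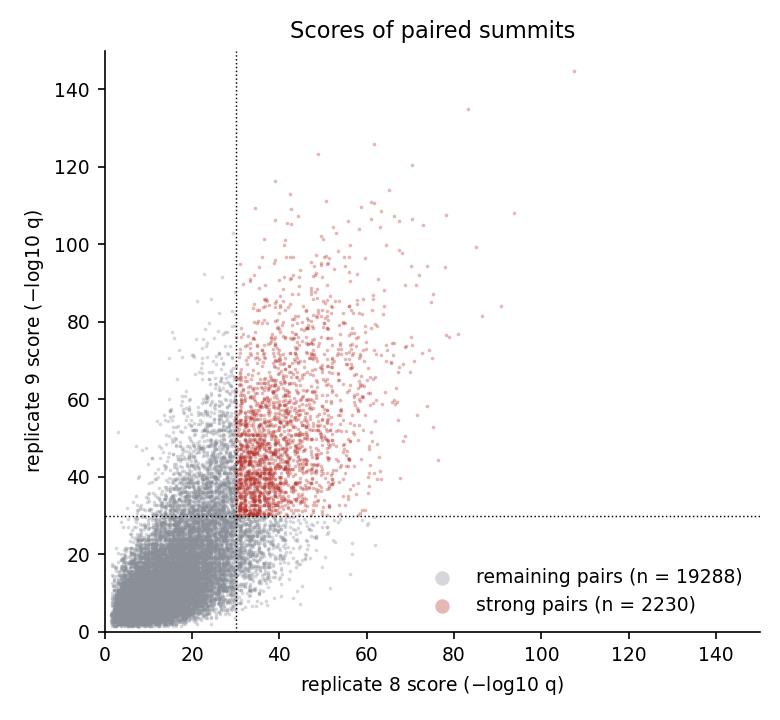
Score of each of the 21518 pairs in replicate 8 (horizontal axis, −log10 q) and replicate 9 (vertical axis, −log10 q), with the 2230 strong pairs in red, the 19288 remaining pairs in grey and dotted lines at the minimum of 30. The strong pairs reach 107 in replicate 8 and 145 in replicate 9, and more grey points lie above the horizontal line to the left of the minimum (strong in replicate 9 only) than to the right below it.

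The minimum was harder to pass in replicate 8. There 3222 summits (7.16% of the list) scored at least 30, compared with 4506 (16.0%) in replicate 9. Of the 3222, 2230 (69.2%) were members, 755 had a partner that scored below 30 and 237 had no partner. Of the 4506, 2230 (49.5%) were members, 1793 had a partner below 30 and 483 had none. High summits without membership were therefore mostly paired sites with a weaker partner, whose scores had a median of 22.1 in replicate 9 and 23.7 in replicate 8. Those with no partner had a summit of the other list not far beyond the pairing distance, at a median of 345 bp from the 237 replicate 8 summits and 358 bp from the 483 replicate 9 summits. Within 1 kb a summit of the other list was found for 212 and 400 of them, and the farthest lay 2814 and 3557 bp away.

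The minimum fell within a continuous range of scores, without a gap. The lower score was from 30 to under 35 at 808 strong sites and from 25 to under 30 at 1204 remaining pairs. Just inside, the site on chromosome 1 at 27176135 scored 30.04 in replicate 8 and 30.09 in replicate 9. The sites on chromosome 8 at 61863775 (30.04 and 53.7) and on chromosome 12 at 26783708 (34.3 and 30.05) followed. Just outside were 6 pairs tied at a replicate 8 score of 29.98. Of these, 1 lay on chromosome 12 at 113679936, with 41.2 in replicate 9, and 2 on chromosome 14 at 77757231 (44.6) and at 102102598 (43.4).

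The 25 strong sites with the best lower rank, the worse of a site's score ranks in the 2 lists, ranked no lower than 97 in either list. Their lowest scores were 61.0 in replicate 8 and 91.1 in replicate 9, and all 25 scored higher in replicate 9. Of them, 7 lay on chromosome 10, which held 6.59% of strong sites and 5.32% of all pairs. Chromosome 2 had 5 (10.8% of strong sites and 8.54% of all pairs). Chromosomes 1 (12.6% and 9.71%) and 3 (7.44% and 6.19%) had 4 each, and chromosomes 6, 7, 12, 13 and 20 had 1 each. The best-ranked of the 25 had rank 1 in both lists and lay on chromosome 2 at 91764035. It scored 107 in replicate 8 and 145 in replicate 9, and the next strong site was 2728 kb away. Neither library had a summit between 92320122 and 95673732 on chromosome 2. Whether the position near this gap affected the scores was not tested. A group of 4 sites, none of them with another strong site within 100 kb, lay in the last part of chromosome 1. The site at 244466487 scored 70.3 and 121, that at 245255286 scored 65.2 and 114, that at 246592090 scored 68.1 and 97.8, and that at 246912353 scored 83.1 and 135, in replicates 8 and 9. On chromosome 10 the site at 73628166 scored 61.6 in replicate 8 and 126 in replicate 9, the third highest score of the replicate 9 list, and lay 20.6 kb from the next strong site. Other strong sites stood close by in several cases. On chromosome 2 the site at 122994177 (67.5 and 98.6) had a strong site 1.57 kb away, and on chromosome 3 the site at 154788952 (64.5 and 99.9) had one 5.49 kb away.

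The libraries placed these 25 summits 0 to 118 bp apart, with a median of 31 bp. At 1 of them, on chromosome 2 at 25896861, both libraries named the same base, with scores of 61.0 and 111. The other best-ranked sites with a shared base lay on chromosome 2 at 113450151 (52.1 and 84.0) and on chromosome 10 at 105001543 (58.4 and 71.6). Sites were also singled out for disagreement between libraries. The largest ratio in favour of replicate 9 was 3.19 on chromosome 20 at 343211, with scores of 34.3 and 109. It was 3.07 on chromosome 2 at 120041685 (30.9 and 95.1) and 2.98 on chromosome 16 at 57861578 (39.0 and 116). In the other direction the ratios were smaller, the largest being 1.93 on chromosome 3 at 151593742, with 57.9 in replicate 8 and 30.1 in replicate 9. Next came chromosome 12 at 88636140 (58.4 and 30.8) and chromosome 6 at 72043488 (59.5 and 31.5). At each of these 6 sites the summits lay within 136 bp of each other, where the pairing allowed at most 200 bp.

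The 2 libraries placed their summits closer together at strong sites than at remaining pairs, a measure the score minimum did not use. The median distance between the paired summits was 36 bp (95% binomial interval of the median 34 to 39 bp) at strong sites and 54 bp (53 to 55 bp) at remaining pairs. The quartiles were 17 and 70 bp, compared with 24 and 101 bp. At most 50 bp separated the summits at 62.1% of strong sites (95% Wilson interval 60.03 to 64.1%) and at 47.3% of remaining pairs (46.6 to 48.0%). More than 100 bp separated them at 290 of the 2230 strong sites and at 4843 of the 19288 remaining pairs (25.1%), the strong share having an interval of 11.7 to 14.5%. The same base was named at 20 strong sites (0.897%) and at 134 remaining pairs (0.695%). The difference was present on every chromosome with strong sites, the median distance being smaller at strong sites on 23 of 23. With pairing within 50 bp the medians over all chromosomes were 22 bp at strong sites and 23 bp at remaining pairs.

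Spacing narrowed along the whole range of scores, with no step at the minimum of 30. The median distance was 72 bp (70 to 74 bp) where the lower score was under 5 and 56 bp (55 to 58 bp) from 5 to under 10. It was 41.5 bp (39 to 43 bp) from 20 to under 30 and 38 bp (35 to 41 bp) from 30 to under 40, so that the intervals of these neighbouring ranges overlapped. From 50 to under 60 it was 30 bp (24 to 36 bp), and at 60 or more it was 27 bp (18 to 38 bp, 75 sites). Neither library lay systematically to one side. The replicate 9 summit had the higher coordinate at 1088 strong sites and the lower at 1122, the median signed offset was −1 bp, and the SD of the offset was 64.9 bp, compared with 84.2 bp at remaining pairs.

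**Figure D2:**
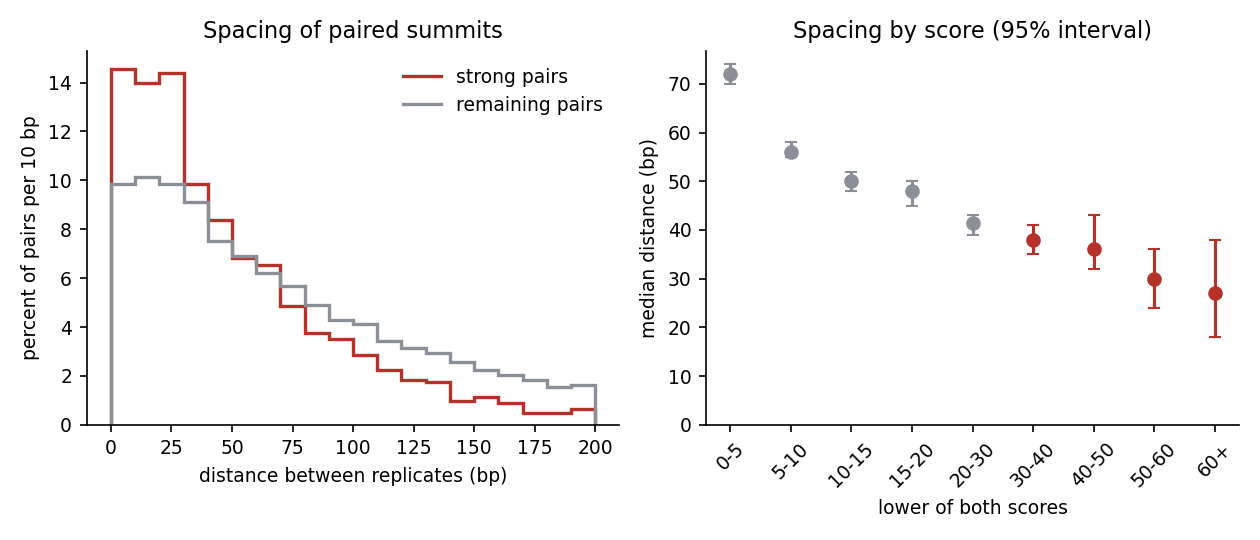
Left, percent of strong pairs (red) and remaining pairs (grey) in each 10 bp range of the distance between replicate summits. Right, median distance in bp with its 95% interval for pairs grouped by the lower of both scores, falling from 72 bp under a score of 5 to 27 bp at 60 or more (red from 30 upward).

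A second summit near by was about as frequent at strong sites with widely spaced summits as at the others. Among the 290 spaced over 100 bp, 9.31% (6.48 to 13.2%) had another replicate 8 summit within 1 kb, compared with 11.9% (10.5 to 13.4%) of the 1940 spaced more closely. For replicate 9 these shares were 6.21% (3.96 to 9.60%) and 6.80% (5.77 to 8.01%). Their median scores were 37.7 and 39.2 in replicate 8 and 47.5 and 49.3 in replicate 9, wide sites first. Only 1 summit was listed per peak, so a second maximum inside a peak would not appear in these lists.

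Around strong sites the neighbourhood had 2 parts. Very near, neighbours were scarcer than around remaining pairs, and farther out they were more frequent. Another replicate 8 summit lay within 500 bp of 0.538% of strong sites (0.308 to 0.938%) and of 2.73% of remaining pairs (2.51 to 2.97%). Within 750 bp the shares were 4.35% (3.58 to 5.28%) and 8.11% (7.73 to 8.50%). At 1 kb the intervals met, with 11.5% (10.3 to 12.9%) and 13.1% (12.6 to 13.6%). From 2 kb on the order was turned round, with 33.7% (31.8 to 35.7%) of strong sites and 27.6% (27.0 to 28.3%) of remaining pairs, and at 10 kb with 68.7% (66.7 to 70.5%) and 59.0% (58.3 to 59.7%). Replicate 9 showed the same order at both ends. Another summit of that list lay within 500 bp of 0.135% of strong sites (0.0458 to 0.395%) and 1.31% of remaining pairs (1.16 to 1.48%). Within 10 kb it was 55.3% (53.3 to 57.4%) and 46.4% (45.7 to 47.1%). With 1 summit listed per peak, no neighbour could be listed inside a summit's own peak. Peak widths were not analysed here, and their part in the scarcity very near strong sites was not tested.

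**Figure D3:**
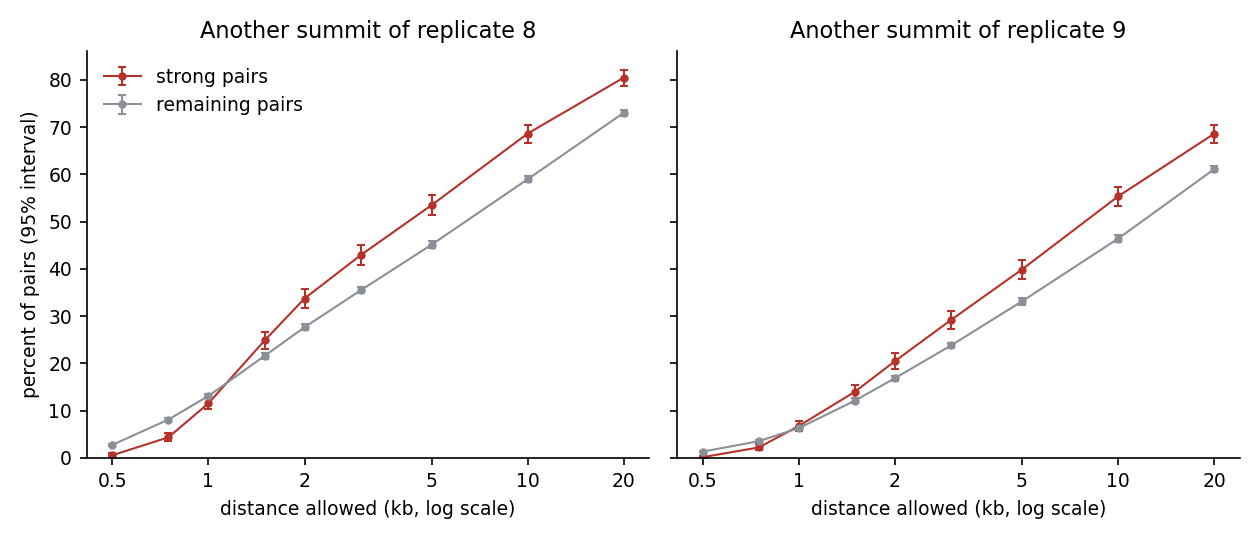
Percent of strong pairs (red) and remaining pairs (grey) with another summit of replicate 8 (left) or replicate 9 (right) within the distance on the horizontal axis (kb, log scale), with 95% Wilson intervals. In both libraries the red line starts below the grey one at 0.5 kb, meets it near 1 kb and lies above it from 2 kb.

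Counted over pairs, 43.8% of strong sites (41.8 to 45.9%) had another pair within 10 kb, compared with 38.7% of remaining pairs (38.0 to 39.4%). The nearest other pair was at a median of 13.3 kb from a strong site and 16.7 kb from a remaining pair. The order of these shares was the same on 18 of 23 chromosomes, and on 15 of the 18 with at least 40 strong sites. The share was 44.8% (42.2 to 47.4%) where the lower score was 30 to under 40 but 33.3% (23.7 to 44.6%) at the 75 sites with 60 or more, so it did not rise further with score. Above a minimum of 50 in place of 30, it was 40.4% at strong sites (34.8 to 46.2%), and this interval held the share of the remaining pairs. Nearer by, strong sites had no excess of other pairs. Within 1500 bp another pair lay near 3.77% of strong sites (3.05 to 4.64%) and 5.85% of remaining pairs (5.53 to 6.19%). Within 3000 bp the shares were 16.5% and 16.4%.

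Strong sites were a somewhat larger part of dense groups. When pairs up to 10 kb apart were joined, 9.58% of pairs standing alone were strong (9.09 to 10.1%), 10.8% of those in groups of 2 (10.005 to 11.7%), 12.5% in groups of 3 (11.1 to 14.1%) and 14.0% in groups of 6 to 10 (10.5 to 18.3%). The nearest pair was itself strong more often for strong sites than for remaining pairs in 5 of 6 ranges of distance, by amounts within overlapping intervals. At 2 to 5 kb it was strong for 14.5% of strong sites (11.4 to 18.2%) and 11.2% of remaining pairs (10.1 to 12.4%). The shares were 15.2% (11.95 to 19.2%) and 11.8% (10.6 to 13.1%) at 5 to 10 kb, 13.01% and 10.2% at 10 to 20 kb, 11.8% and 10.1% at 20 to 50 kb and 11.5% and 9.45% at 50 to 200 kb. Within 2 kb the order was the other way, with 7.45% (4.49 to 12.1%) and 8.69% (7.51 to 10.04%).

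Most strong sites had no other strong site within 50 kb. The nearest other strong site was at a median of 177 kb, and joining strong sites up to 50 kb apart left 1681 of 2230 (75.4%) on their own. Over all 21518 pairs the nearest other pair was at a median of 16.2 kb, and 5359 pairs were on their own at 50 kb. These values depend on the number of sites in each set, and a set of equal size was not compared. The fullest group held 6 strong sites among 8 pairs over 93.6 kb of chromosome 1, chr1:221966980-222060614, with scores of 30.8 to 58.3 in replicate 8 and 31.5 to 70.6 in replicate 9. There strong sites were the greater part of all pairs. A group of 5 strong sites among 9 pairs lay on chromosome 20, chr20:52499902-52558916, with scores of up to 59.1 and 85.8. Another 5 among 11 pairs lay on chromosome 7, chr7:151358632-151442512, where the replicate 9 scores reached 113 and those of replicate 8 reached 42.5. A further 6 groups held 4 strong sites each, tied for the next places. The first in order was chr10:73572400-73648713, with 4 of 12 pairs, which contains the third-highest summit of replicate 9. The next was chr10:117840347-117914903, with 4 of 6 pairs. At the other extreme, the strong site on chromosome 3 at 954661 (45.2 and 35.5) had no other pair within 1496 kb, that on chromosome 14 at 107235218 (41.0 and 58.5) none within 1303 kb, and that on chromosome 5 at 18969207 (31.0 and 35.5) none within 1050 kb.

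The part of each chromosome's pairs that was strong varied 10.1-fold among the 23 chromosomes with at least 100 pairs. It was highest on chromosome 20, where 135 of 694 pairs were strong (19.5%, 16.7 to 22.6%), beside 10.4% over all pairs. Next were chromosome 1 (13.5%, 12.1 to 15.03%), chromosome 6 (13.3%, 11.6 to 15.3%) and chromosome 2 (13.1%, 11.6 to 14.7%), which did not differ beyond their intervals. It was lowest on chromosome 11, where 16 of 827 pairs were strong (1.93%, 1.19 to 3.12%). Chromosomes 21 (2.69%, 1.31 to 5.45%), 15 (2.96%, 1.88 to 4.63%), X (4.12%, 2.69 to 6.28%), 18 (4.27%, 2.71 to 6.64%) and 5 (4.97%, 3.79 to 6.49%) followed, with intervals that overlapped in part. The intervals of chromosomes 20, 1, 6, 2, 10 and 3 lay above the share over all pairs, and those of chromosome 9 (7.39%, 5.83 to 9.33%) and of the 6 lowest lay below it. Chromosome Y held only 8 pairs and no strong site. The DNA copy number of the chromosomes in these cells was not analysed here, so the shares do not show binding preference alone.

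At the shared minimum of 30, which a smaller part of the replicate 8 list passed, the libraries did not contribute equally to these differences. In replicate 8 alone, summits of at least 30 made up 13.1% of the list on chromosome 20 (11.5 to 14.99%) and 1.85% on chromosome 11 (1.31 to 2.61%), beside 7.16% over the list. In replicate 9 alone the shares were 22.5% (19.9 to 25.4%) and 11.5% (9.74 to 13.4%), beside 16.0%. The highest share among chromosomes was 7.10 times the lowest in replicate 8 and 2.65 times in replicate 9. These ratios compare a stricter cut of replicate 8 with a looser one of replicate 9. The 95th percentile of the scores was 41.4 on chromosome 20 and 25.3 on chromosome 11 in replicate 8. In replicate 9 it was 67.6 and 39.5. The part of the unlike cuts in the ratios was not tested. Both libraries placed chromosome 20 first, and the shares had a Spearman's rho of 0.714 across the 23 chromosomes, which share the input library and the caller. Without replicate 8, chromosome 11 was at 0.714 times the share of the whole list, whereas among strong pairs it was at 0.187 times that of all pairs.

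**Figure D4:**
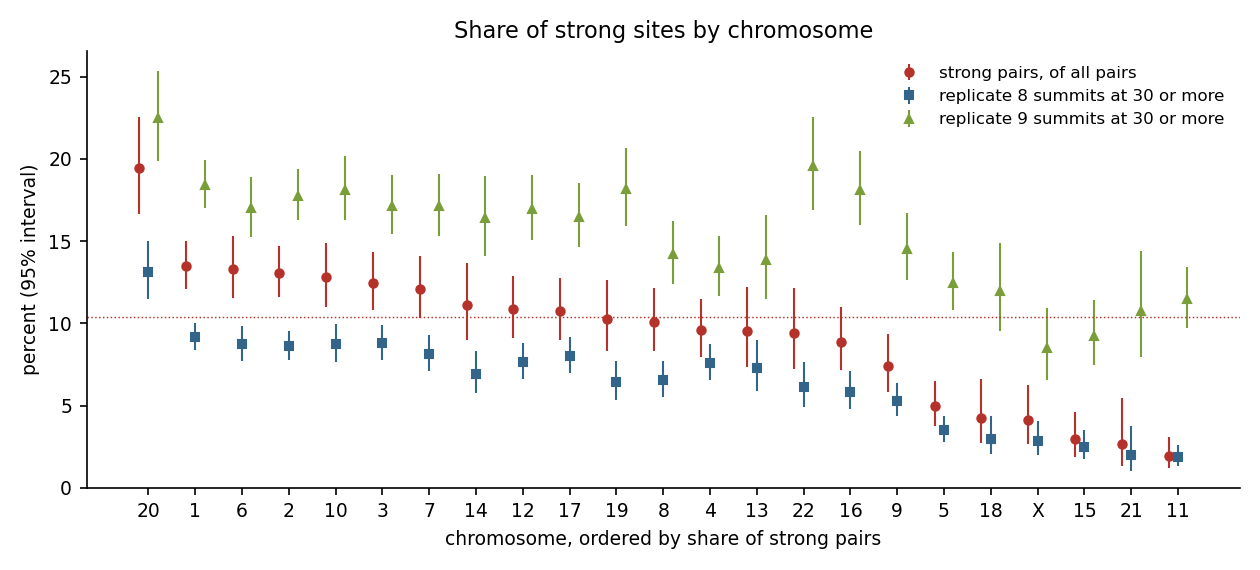
Percent of pairs that were strong (red circles) and percent of summits with a score of at least 30 in replicate 8 (blue squares) and replicate 9 (green triangles), with 95% Wilson intervals, on the 23 chromosomes with at least 100 pairs. Chromosome 20 is highest in all 3 series, and the dotted line marks 10.4%, the strong share of all pairs.

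Chromosome 11 had high replicate 9 summits whose replicate 8 partners mostly scored under 30. Of its 115 pairs with a replicate 9 score of at least 30, 16 were strong (13.9%, 8.75 to 21.4%), and the median score of their replicate 8 partners was 23.2. On chromosome 20 the corresponding numbers were 135 of 178 (75.8%, 69.1 to 81.5%) and 36.8. Chromosomes 21 (7 of 35, 20%), 15 (18 of 68, 26.5%), 18 (18 of 59, 30.5%) and 5 (50 of 145, 34.5%) were also low by this measure. In the other direction the chromosomes were more alike. A replicate 8 summit of at least 30 was strong in 51.6% of 31 pairs on chromosome 11 (34.8 to 68.0%) and in 79.4% of 170 on chromosome 20 (72.7 to 84.8%). On chromosomes 15, 18 and 5 it was strong in 69.2%, 78.3% and 73.5%. The partner median of 23.2 on chromosome 11 was not low for replicate 8. The upper quartile of replicate 8 scores over all pairs was 23.4, and the 95th percentile on chromosome 11 was 25.3.

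Within several chromosomes the strong share differed between the 2 sides of the longest stretch without a summit, a division chosen after the chromosome shares were seen. The stretch was found from the summits alone and was not matched to an annotated centromere. Below it on chromosome 3, from the first summit to 90234132, 20 of 514 pairs were strong (3.89%, 2.53 to 5.93%). Above it, from 93562978 on, 146 of 819 were (17.8%, 15.4 to 20.6%), 4.58 times the share. Each list had this difference at the minimum of 30 that also chose the strong pairs, so it is not separate support. At 30 or more were 3.09% and 11.9% of replicate 8 summits and 11.5% and 20.9% of replicate 9 summits, lower side first. The lower side was low along its length, with at most 10.2% of pairs strong in any 10 Mb block of at least 20 pairs, and the upper side held 10.9% to 29.5% per block.

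Chromosomes 10 and 13 were divided in the same direction. On chromosome 10 the strong share was 4.74% below the stretch (12 of 253, 2.73 to 8.11%) and 15.1% above it (135 of 892, 12.9 to 17.6%). On chromosome 13 it was 3% (6 of 200, 1.38 to 6.39%) and 13.2% (47 of 357, 10.05 to 17.1%), and there the stretch was short, 1.92 Mb, and began at 53393271. Chromosome 16 (5.19% and 11.5%) completed the 4 chromosomes whose sides had separate intervals among strong pairs and in each library alone. Chromosomes 8 (4.12% and 12.2%), 9 (3.06% and 8.66%) and 1 (11.1% and 16.5%) had separate intervals among strong pairs and in replicate 8, but not in replicate 9. Chromosome 5 was the exception in direction, with 7.95% below and 3.69% above. In all, 8 of 21 chromosomes with at least 100 pairs on both sides had separate intervals. All 8 had the same direction in both libraries, whose scores of at least 30 had chosen the strong pairs. Chromosome 20 had 19.6% and 19.4% and chromosome 11 had 1.90% and 1.95%, so that on the highest and the lowest chromosome the sides lay well within each other's intervals.

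**Figure D5:**
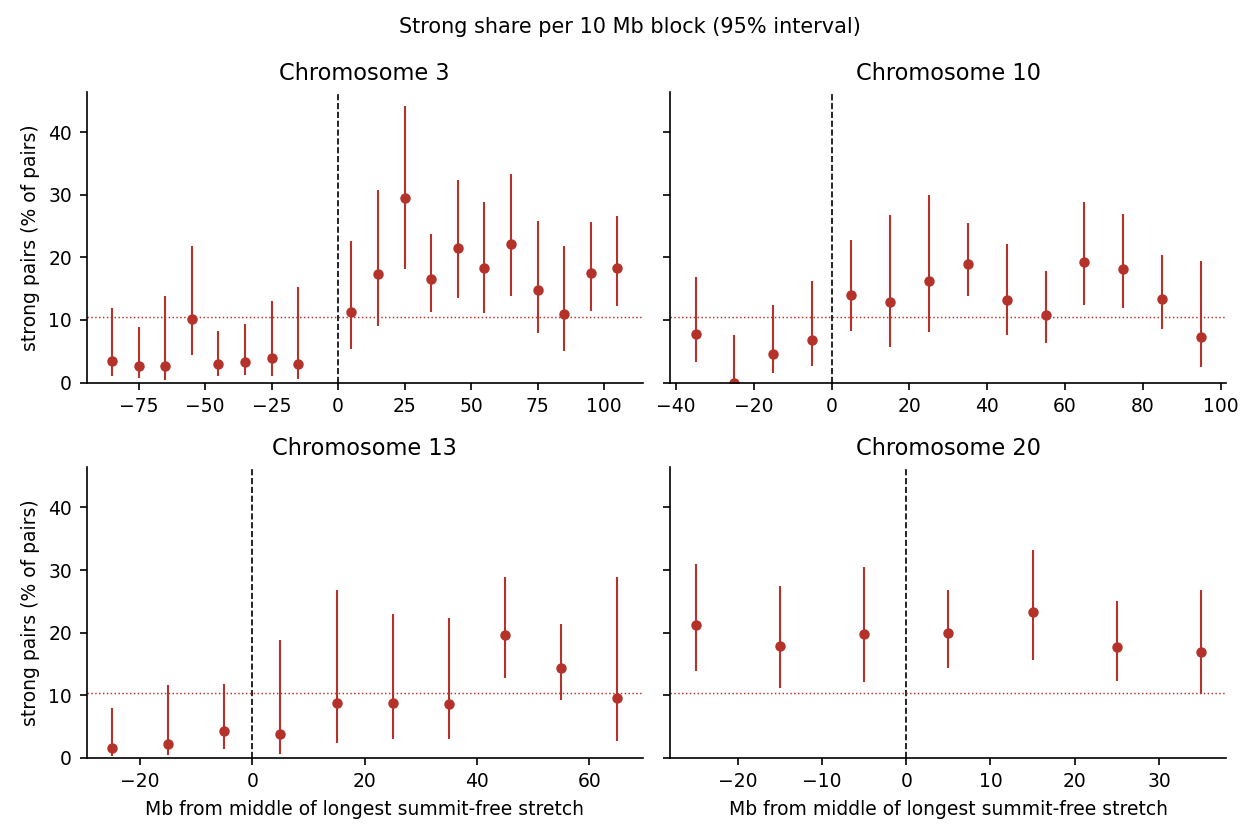
Percent of pairs that were strong in 10 Mb blocks with at least 20 pairs (95% Wilson intervals) against distance in Mb from the middle of the longest summit-free stretch (dashed line) on chromosomes 3, 10, 13 and 20. Chromosomes 3 and 10 are low to the left of the line and higher to its right, chromosome 13 rises further to the right, and chromosome 20 stays near 20% on both sides, with the dotted line at 10.4%.

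The density of pairs moved with these differences in part. On chromosome 3 there were 5.72 pairs per Mb below the stretch and 7.86 above it, and on chromosome 10 there were 6.52 and 9.61. On chromosome 13, however, the densities were 6.02 and 5.97. Summits that the pairing left out were described as well. Most of them scored low, so they cannot show whether scores of 30 or more differed between the sides. On chromosome 3 the unpaired replicate 8 summits had a median score of 5.18 (4.76 to 5.40, n = 488) on the lower side and 5.21 (4.92 to 5.43, n = 1011) on the higher side. Scores of 10 or more made up 15.4% on both sides. On chromosome 10 these shares were 16.3% (12.3 to 21.3%) and 18.6% (16.2 to 21.3%), on chromosome 16 they were 14.8% (11.5 to 18.8%) and 16.7% (13.4 to 20.5%), and on chromosome 13 they were 17.7% (12.96 to 23.7%) and 14.0% (10.9 to 18.0%), lower side first. In replicate 9 the shares were 26.1% and 31.3% on chromosome 3, 25.8% and 31.3% on chromosome 10, 29.6% and 37.3% on chromosome 16 and 26.9% and 25.3% on chromosome 13. They were thus higher on the higher side of chromosomes 3, 10 and 16 and lower on that of chromosome 13, and the intervals of the sides overlapped in each case. Across the 23 chromosomes, which share libraries, input and caller, the strong share had a Spearman's rho of 0.429 with the share of unpaired replicate 8 summits at 10 or more and of 0.0919 with that of replicate 9. With the median score of the remaining pairs, from which the rule had removed the strong ones, rho was 0.854 in replicate 8 and −0.0634 in replicate 9. The parts of pair density and of DNA copy number in the differences were not tested.

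On the scale of 10 Mb, 196 blocks held at least 50 pairs, and the median of their strong shares was 10.4%. The share was at least 20% in 14 blocks, led by chromosome 1 from 240 to 250 Mb with 18 of 67 pairs (26.9%, 17.7 to 38.5%), chromosome 3 from 110 to 120 Mb with 13 of 50 (26.0%, 15.9 to 39.6%) and chromosome 20 from 50 to 60 Mb with 20 of 78 (25.6%, 17.3 to 36.3%). The first of these holds the group of 4 high sites on chromosome 1. No strong site was found in 4 blocks. On chromosome 11, 0 of 96 pairs were strong from 0 to 10 Mb (Wilson upper limit 3.85%) and 0 of 64 from 40 to 50 Mb (5.66%). On chromosome 15, 0 of 82 were strong from 80 to 90 Mb (4.48%), and on chromosome 3, 0 of 54 from 60 to 70 Mb (6.64%). Taken as 3 pairs of the total, the limit that a count of 0 allows is 3.13%, 4.69%, 3.66% and 5.56% in the same order. These blocks were chosen after their values were seen.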

How the data were processed

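HA-PSF-TFE3 binding was measured by ChIP-seq in 2 libraries, with 1 input library. Peak calling by the authors used MACS2, 1 ChIP library at a time, with the input as control. The deposited values are 1 summit per peak with its −log10 q-value, not scaled between libraries. The stated q-value cutoff of 0.05 equals a score of 1.301. The study's text also states a p-value cutoff, and names both hg38 and hg19, so the exact settings are not certain. In replicate 8, 364 positions exceeded the length of their hg38 chromosome, so the lists were taken as hg19, which the labels name. Aligner and caller versions are not given in the sources used here, and sequencing depth was not used here.

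Summits at most 200 bp apart that were each other's nearest formed a pair, and pairs scoring at least 30 in both lists were kept. Members, lists and alternatives were chosen with earlier results of these data known. Shares have 95% Wilson intervals and medians have binomial intervals of order statistics. Neighbouring sites are not independent, so these are too narrow as a measure of biological spread. No test of a difference between sets was run. Chromosomes were divided at the longest stretch holding no summit of either list.

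Named sites were the 25 with the best lower rank, 3 members just inside the minimum and 3 pairs just outside, 3 with the largest score ratio in each direction, 3 farthest from any other pair, the 5 fullest groups within 50 kb, and the 3 best-ranked sites with a shared base. Blocks of 10 Mb were named after their values were seen. Pairing was checked on simulated lists, in which 2849 of 2849 planted pairs were recovered and no other pair was made. Alternatives changed the score minimum, the pairing distance, the neighbour window, ranks in place of scores, and the library used. Gene and motif analyses were not run, because the genome at hand is of another build. Python 3.11.15, numpy 2.4.6, pandas 2.3.3, scipy 1.17.1 and matplotlib 3.10.9 were used.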

Additional observations from a re-analysis of the deposited data

How the results depend on the processing

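The alternatives for chromosome 3 and for single libraries by chromosome were added once the values were known, after seeing the data. The number of strong pairs was 5082, 866 and 280 with minimum scores of 20, 40 and 50, 1384 with pairing within 50 bp, and from 3222 to 4506 summits in either library alone. With the 3864 top-ranked summits of each list, or with pairing within 500 bp, it stayed within 1.5 times.

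The median distance at strong pairs was 28 bp with a minimum of 50, 22 bp with pairing within 50 bp and 40 bp within 500 bp. At remaining pairs it was 57 bp with a minimum of 20, 23 bp within 50 bp and 65 bp within 500 bp. It was smaller at strong pairs in all 6 alternatives, by 1 bp with pairing within 50 bp.

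The share with another pair within 10 kb was 40.4% at strong pairs with a minimum of 50, 24.6% with pairing within 50 bp and 48.8% within 500 bp, and 27.0% and 79.8% with windows of 5 and 50 kb. At remaining pairs it was 37.9% with a minimum of 20, 20.9% and 43.4% with pairing within 50 and 500 bp, and 25.3% and 74.5% with windows of 5 and 50 kb. Each library alone gave 55.3% to 68.7% at strong pairs and 46.4% to 59.0% at remaining pairs. It was higher at strong pairs in all 10 alternatives.

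Relative to all pairs, the strong share of chromosome 20 was 1.88, moving to 1.33 and 2.36 with minimum scores of 20 and 40 and from 1.40 to 1.83 in single libraries. That of chromosome 11 was 0.187, moving to 0.666 and 0, and from 0.258 to 0.714 in single libraries. The lower side of chromosome 3 was at 0.375, moving to 0.733 and 0.0483, and from 0.432 to 0.715. Its higher side was at 1.72, moving to 1.35 and 2.09, and from 1.301 to 1.66. No value crossed 1, and a higher minimum widened each contrast. The cause of these moves was not tested, except that changed distances and windows act by construction.

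Motif and gene alternatives were not run, because the genome at hand is of another build. No paired analysis was possible because the lists form 1 group. Sequencing depth was not used here, and a score below 30 shows no absence of binding.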
